A study of Mus musculus with 12 samples.

Results

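The amino acid transporter families described here are the genes of the solute carrier families Slc1, Slc3, Slc6, Slc7, Slc36, Slc38 and Slc43. They were chosen by the first letters of their gene symbols. This name rule uses no measured value, but it was set with earlier results of these data known. The deposited count table held 33 such genes among 17718, and 26 of them passed the low count filter among 13013 tested. Another 34 mouse symbols that match the same name rule were not analysed here. One of the 33, Slc7a6os, carries the name only because it lies on the strand opposite to Slc7a6, and it encodes no carrier.

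The cells were CT26, a mouse colorectal carcinoma line, grown in RPMI medium with serum. One genotype was wild-type for Mll3 and untreated, and the other carried a knock-out of Mll3 (gene symbol Kmt2c), a histone methyltransferase that marks enhancers. Each genotype had 3 strand-specific RNA-seq libraries, and the labels give 1 batch date for all 6. The knock-out columns are named sg1, sg2 and sg3, and the labels do not say whether these are guides, clones or pools. Nothing in the labels says that the libraries came from separate cultures, so the p-values cover only library-to-library spread, part or all of which may be technical. Levels are CPM (counts scaled to a common library size) after TMM scaling, and changes are knock-out over wild-type.

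Cells take up amino acids through carriers that divide the work by substrate and by driving force. The Slc1, Slc6 and Slc38 carriers use the sodium gradient, the Slc36 carriers use protons, and most Slc7 carriers swap one amino acid for another. Several Slc7 light chains reach the membrane only when joined to a heavy chain of the Slc3 family, and the heavy chain CD98 (Slc3a2) serves most of them. In proliferating cells a glutamine importer and a leucine exchanger are often described as a pair, since glutamine that has entered can leave in exchange for leucine. When amino acids run short, the transcription factor Atf4 is known to raise many of these carriers, through DNA elements near their start sites.

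Promoter sequences are shown first for the 3 members with a window that holds the core letters of the amino acid response element (TGATGNAA, searched on both strands). Of these, Slc7a11 and Slc1a4 fell and Slc7a7 rose. Each run gives the 250 bases before a RefSeq start site and 4 from it, 5′ to 3′ in gene orientation on GRCm38.p6, with matches to the motif in capitals.
Slc7a11, chr3:50443610-50443863, minus strand: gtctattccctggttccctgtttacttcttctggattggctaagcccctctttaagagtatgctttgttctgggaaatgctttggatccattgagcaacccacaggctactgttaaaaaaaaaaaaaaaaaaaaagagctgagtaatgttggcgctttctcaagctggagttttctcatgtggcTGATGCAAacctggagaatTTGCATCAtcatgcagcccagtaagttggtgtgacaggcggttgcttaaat
Slc1a4, chr11:20332710-20332963, minus strand: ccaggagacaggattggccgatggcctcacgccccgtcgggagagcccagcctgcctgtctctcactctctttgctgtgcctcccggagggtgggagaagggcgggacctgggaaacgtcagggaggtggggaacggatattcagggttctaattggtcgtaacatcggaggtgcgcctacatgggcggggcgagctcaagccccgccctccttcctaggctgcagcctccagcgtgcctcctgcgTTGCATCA
Slc7a7, chr14:54417699-54417952, minus strand, 1 of 5 RefSeq windows of the gene: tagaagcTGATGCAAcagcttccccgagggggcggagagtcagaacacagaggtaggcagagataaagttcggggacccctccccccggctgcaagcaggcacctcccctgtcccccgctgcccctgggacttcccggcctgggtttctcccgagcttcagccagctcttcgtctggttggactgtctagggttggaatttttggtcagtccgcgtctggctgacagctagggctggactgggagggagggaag
In the Slc7a11 window the motif was found once on each strand, with first bases at -66 and -47 from the start site. In the Slc1a4 window the match began at -4 and was on the strand opposite to the gene, and in the Slc7a7 window shown it began at -243. The Slc1a4 start site is the end of the RefSeq gene span, whereas those of Slc7a11 and Slc7a7 lie 55474 and 2366 bases inside it, so they are not the outermost starts. The whole windows ran from 250 bases before the start to 50 after it and were available for 26 of the 33 members. There was none for Slc1a5, Slc7a5, Slc6a6, Slc6a8, Slc38a1, Slc43a3 and Slc7a3, so these were not searched. The only Slc3a2 start site lies 9472 bases inside the gene span. The core was in 4 of the 41 windows of these members (Slc1a4, Slc7a7, Slc7a11), and 3.97% of all 32851 RefSeq promoter windows hold it. The antioxidant response element core TGACNNNGC was in 8 of the 41 (Slc6a9, Slc6a13, Slc7a1, Slc7a6, Slc36a1, Slc38a2), against 12.4% of all windows. The E-box CACGTG was in 3 of the 41 (Slc1a7, Slc36a1, Slc38a7), close to the 7.15% of all windows. Windows of 1 gene can overlap, so the same site can be counted more than once. The Slc7a7 match at -243 is also the match at -1 in another of its windows. The Slc7a6 match at -1 in 1 window is the match at -68 in the other. No member gene held both of the first 2 motifs, and in Slc36a1 the E-box match that begins at -3 shares letters with the TGACNNNGC match that begins at 2. The motifs were chosen after the expression values were seen, and a match is a run of letters only.

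Most of the tested carriers were lower in the knock-out. By edgeR's quasi-likelihood test with Benjamini-Hochberg adjustment over all genes tested, 14 of the 26 tested members fell (53.8%), 5 rose (19.2%) and 7 were not called at an adjusted p under 0.05. Of all tested genes 33.2% fell and 33.1% rose, so the knock-out differed at many genes, and the members leaned to lower values by more than all genes did. Among changes of at least 1.5-fold, 11 members were lower (42.3%) and 4 higher (15.4%), beside 14.4% and 18.7% of all tested genes. These counts include Slc1a2 (lower) and Slc6a14 (higher). Both reached the count minimum of the filter in 1 genotype only, the one in which they are high. The 2 genotypes did not overlap at 19 members (73.1%), and at 68.7% of all tested genes. The median log2 fold change was -0.43 for the members and 0.02 for all tested genes. Leaving out Slc7a6os, 13 of 25 carriers and heavy chains fell, 5 rose, and their median was -0.32. In bulk RNA, fewer cells of a type and less RNA per cell cannot be told apart.

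Added up, the 33 genes took 4349, 4421 and 4400 CPM in the wild-type libraries and 2854, 2899 and 2863 CPM in the knock-out libraries. The groups lay far apart, at 4390 ± 36.9 and 2872 ± 23.8 CPM (SD, n = 3 each), a sum 1.53-fold lower in the knock-out. The families did not share this equally. The Slc7 sum was 2.27-fold lower (1619 ± 10.2 to 715 ± 7.24 CPM), the Slc3 sum 2.06-fold lower (510 ± 11.8 to 248 ± 8.84 CPM) and the Slc1 sum 1.90-fold lower (740 ± 6.15 to 389 ± 11.1 CPM). The Slc38 sum was 1091 ± 24.5 CPM in wild-type and 1093 ± 28.9 CPM in knock-out libraries, and the Slc6 sum was 401 ± 17.2 and 401 ± 9.77 CPM. Each of the last 2 sums held members that moved in opposite directions, as did the Slc7 sum, in which Slc7a7 rose. Most of the Slc7 sum came from Slc7a5 and Slc7a1 (767 and 653 CPM on average in wild-type libraries). Nearly all of the Slc3 sum was Slc3a2 (504 CPM). Slc1a5 (506 CPM) held most of the Slc1 sum and Slc38a2 (909 CPM) most of the Slc38 sum. The Slc7 sum and the total include Slc7a6os, which is no carrier.

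**Figure D1:**
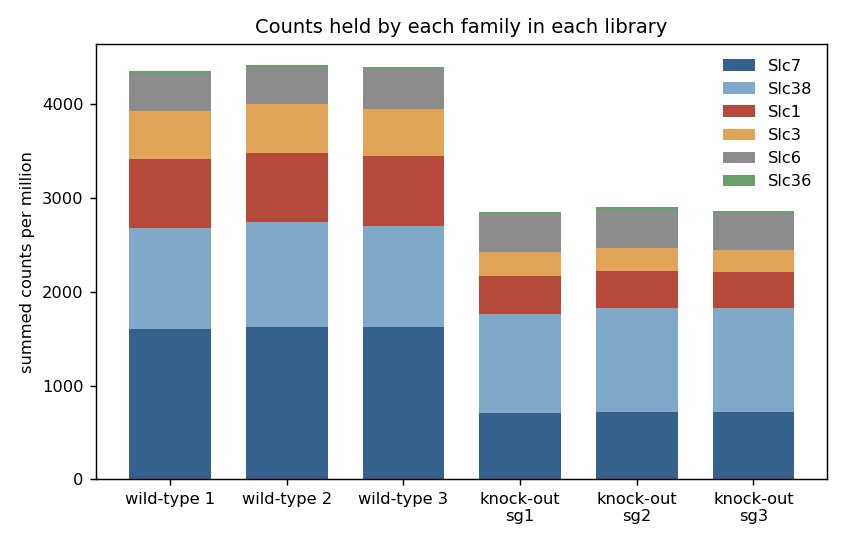
Stacked bars of the summed CPM of each amino acid transporter family in each of the 6 libraries, from 0; Slc43, whose sum was at most 1.07 CPM on average, is left out. The bars reach 4349 to 4421 CPM in wild-type and 2854 to 2899 CPM in knock-out libraries, and the Slc7, Slc1 and Slc3 segments are shorter in all 3 knock-out libraries.

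At this depth 26 of the 33 members could be tested. Library totals ran from 9559658 to 13406013 counts, so that 1 count was worth 0.0786 to 0.108 CPM, and the common biological coefficient of variation was 5.03%. Kmt2c itself stood at 24.9, 26.2 and 25 CPM in wild-type and at 16, 11.2 and 14.8 CPM in knock-out libraries, lower but present (log2 fold change -0.87, edgeR adjusted p = 4.33e-08). Of 9 epithelial markers of the labelled cell type, 4 were in the table, and their summed level was 54.3 to 56.3 CPM in wild-type and 170 to 182 CPM in knock-out libraries. All 4, which are keratins, rose: Krt8 from 0.132 ± 0.0733 to 2.39 ± 0.817 CPM, Krt20 from 15 ± 0.574 to 51.8 ± 3.93 CPM, Krt18 from 38.8 ± 1.48 to 111 ± 5.85 CPM and Krt7 from 1.11 ± 0.312 to 9.21 ± 1.02 CPM. Fibroblast markers (5 of 6 in the table) summed to 1008 to 1025 CPM in wild-type and 1320 to 1359 CPM in knock-out libraries. Of them 4 rose and 1 was not called, with a median log2 fold change of 1.03 (33.1% of all tested genes rose). Col1a1 rose from 95.1 ± 10.6 to 283 ± 9.87 CPM, and Col1a2, which held most of the sum, from 880 ± 6.45 to 1009 ± 11.7 CPM. Immune markers (4 of 8) summed to 14.4 to 17.3 CPM and 13.9 to 18.4 CPM, with Lyz2 higher and Csf1r lower in the knock-out. Endothelial markers (3 of 4) summed to 0.471 to 1.94 CPM and 1.96 to 3.11 CPM. The part of these shifts in the carrier results was not tested.

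**Figure D2:**
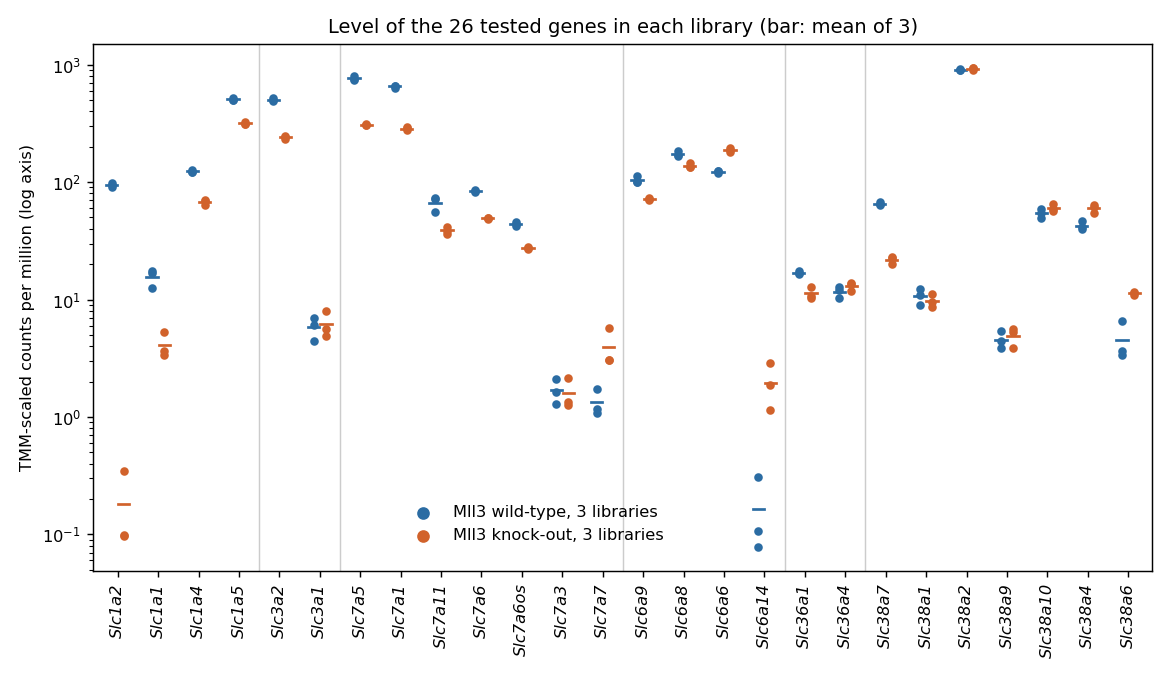
TMM-scaled CPM of the 26 tested members in each library (points, log axis) with the mean of the 3 libraries of a genotype as a bar, and grey lines between families. Wild-type and knock-out points separate for Slc1a2, Slc7a5, Slc3a2 and Slc38a7 and overlap for Slc38a2 and Slc3a1.

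All 4 tested Slc1 members fell, with a median log2 fold change of -1.39. These genes encode sodium-driven carriers of glutamate and aspartate (Slc1a1, Slc1a2) and of small neutral amino acids (Slc1a4, Slc1a5). Slc1a2, the main glutamate importer of astrocytes, lies at chr2:102658239-102790784. It stood at 97.7, 94.1 and 91.1 CPM in wild-type libraries but at only 0.0979, 0.346 and 0.0961 CPM in knock-out libraries. That is 3011 counts in all against 6, a scaled ratio of 508 with a 95% counting interval of 233 to 1385 that covers counting error only. Its log2 fold change of -8.90 (edgeR adjusted p = 3.24e-43) was the fifth largest fall of the 13013 genes tested. The gene reached the count minimum of the filter in wild-type libraries only, so it entered the test through the group in which it is high. Without library sg2, which held 4 of the 6 knock-out counts, the value was -9.77. The neighbouring genes did not share it: the 20 tested genes on each side had a median of 0.11. Of 6 astrocyte and neuron markers, only 2 were in the table, with a sum of 14.7 to 18 CPM in wild-type and 1.04 to 1.57 CPM in knock-out libraries. Nearly all of that sum was Syt1, a synaptic vesicle protein, which fell from 16 ± 1.73 to 1.32 ± 0.265 CPM (log2 fold change -3.60). Whether the Slc1a2 and Syt1 falls are related was not tested.

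Slc1a1, which encodes the glutamate and aspartate carrier EAAT3 on chromosome 19, was far lower as well. It stood at 17.4, 16.7 and 12.5 CPM in wild-type and at 3.62, 5.28 and 3.36 CPM in knock-out libraries, with no overlap. The log2 fold change was -1.92 ± 0.19 (SE; edgeR adjusted p = 4.18e-13). Its chromosomal neighbours also fell on balance (median -0.35), and measured against them Slc1a1 was lower by a log2 value of -1.57.

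The neutral amino acid carriers of the family fell by less. Slc1a5 encodes ASCT2, which brings glutamine into many tumour cells, and stood at 498, 498 and 522 CPM in wild-type and at 327, 313 and 312 CPM in knock-out libraries. The genotypes were well separated, with a log2 fold change of -0.67 ± 0.04 (edgeR adjusted p = 7.69e-23), a 1.59-fold fall. Slc1a4, a carrier of alanine, serine and cysteine, stood at 123, 127 and 121 CPM and at 70.5, 68.7 and 64.0 CPM. It was lower in all 3 knock-out libraries, by a log2 fold change of -0.87 ± 0.06 (edgeR adjusted p = 1.67e-19). Slc1a7, a glutamate carrier of the retina, was too low to test, with 22 counts in wild-type and 1 in knock-out libraries (scaled ratio 22.3, 95% counting interval 3.60 to 919), the latter in library sg2.

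The heavy chain CD98 and 3 of the 4 light chains that join it and were measured here fell, and the other, Slc7a7, rose (Slc7a8 and Slc7a10 were not analysed here). Slc3a2 (chr19:8706882-8723369), the CD98 heavy chain, stood at 502, 516 and 494 CPM in wild-type and at 249, 243 and 234 CPM in knock-out libraries. The knock-out level was less than that of any wild-type library by a wide margin, with a log2 fold change of -1.06 ± 0.04 (edgeR adjusted p = 2.45e-31). Slc7a5 (chr8:121881146-121907686) encodes LAT1, the exchanger that imports leucine and other large neutral amino acids. It stood at 741, 761 and 797 CPM in wild-type and at 314, 304 and 306 CPM in knock-out libraries. The log2 fold change was -1.32 ± 0.04 (edgeR adjusted p = 7.37e-37), the largest fall among the tested members of the CD98 complex, 2.49-fold.

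Slc7a11 encodes xCT, which takes up cystine in exchange for glutamate and feeds glutathione synthesis. Its wild-type libraries were uneven, at 71.7, 73.2 and 55.4 CPM, and its knock-out libraries stood at 36.4, 41.5 and 38.4 CPM. The groups did not overlap, and the log2 fold change was -0.79 ± 0.08 (edgeR adjusted p = 1.67e-11). Without wild-type replicate 3, the lowest of that group, it was -0.91. The gene's neighbours had a median of 0.14, on the other side of 0.

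Slc7a6 encodes an exchanger of cationic for neutral amino acids (y+LAT2) and stood at 84.7, 86.5 and 82.1 CPM in wild-type and at 49.2, 48.6 and 49.4 CPM in knock-out libraries. It was lower by a log2 fold change of -0.78 ± 0.07 (edgeR adjusted p = 2.46e-15). Slc7a6os, its neighbour on the opposite strand, stood at 43.7, 42.1 and 45.9 CPM and at 27.4, 28.3 and 27.2 CPM (log2 fold change -0.67 ± 0.09, edgeR adjusted p = 4.36e-09). The RefSeq spans of these genes do not overlap (106168219 to 106198714 and 106200438 to 106210933 on chromosome 8), but how strand was set in counting is not given in the sources used here, so reads that run past a gene's end could have been counted for the other gene. Slc7a7, the light chain that rose, encodes y+LAT1, the form of the same exchanger known from kidney, intestine and macrophages. It rose from 1.18, 1.73 and 1.08 CPM to 3.03, 3.03 and 5.77 CPM, with no overlap between genotypes. The log2 fold change was 1.56 ± 0.36 (edgeR adjusted p = 0.00017), and 1.18 without library sg3, the highest (adjusted p = 0.0175). Of the macrophage and other immune markers, Csf1r fell from 15.2 to 6.72 CPM on average, Lyz2 rose from 0.553 to 8.80 CPM and Ptprc was at most 0.346 CPM in any library. Their part in the Slc7a7 rise was not tested.

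Slc7a1 encodes CAT1, the arginine and lysine importer that needs no heavy chain. It stood at 662, 660 and 639 CPM in wild-type and at 276, 288 and 293 CPM in knock-out libraries. This fall was close in size to those of Slc7a5 and Slc3a2, with a log2 fold change of -1.19 ± 0.04 (edgeR adjusted p = 1.35e-34). A second cationic carrier, Slc7a3, stood at 1.68 ± 0.416 and 1.59 ± 0.494 CPM. Its difference was not resolved, with a 95% interval of the log2 fold change from -0.90 to 0.72.

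The heavy chain of the kidney and intestinal cystine carrier did not follow CD98. Slc3a1, the heavy chain rBAT, stood at 6.99, 6.12 and 4.42 CPM in wild-type and at 7.93, 4.93 and 5.57 CPM in knock-out libraries. The genotypes overlapped, with a 95% interval of the log2 fold change from -0.40 to 0.50, which leaves out a fall of the size measured for Slc3a2. Its light chain partner Slc7a9 was too low to test, with 28 counts in wild-type and 9 in knock-out libraries (scaled ratio 3.15, 95% counting interval 1.44 to 7.58; 4.83 without library sg1). Slc7a15 had 3 and 2 counts.

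**Figure D3:**
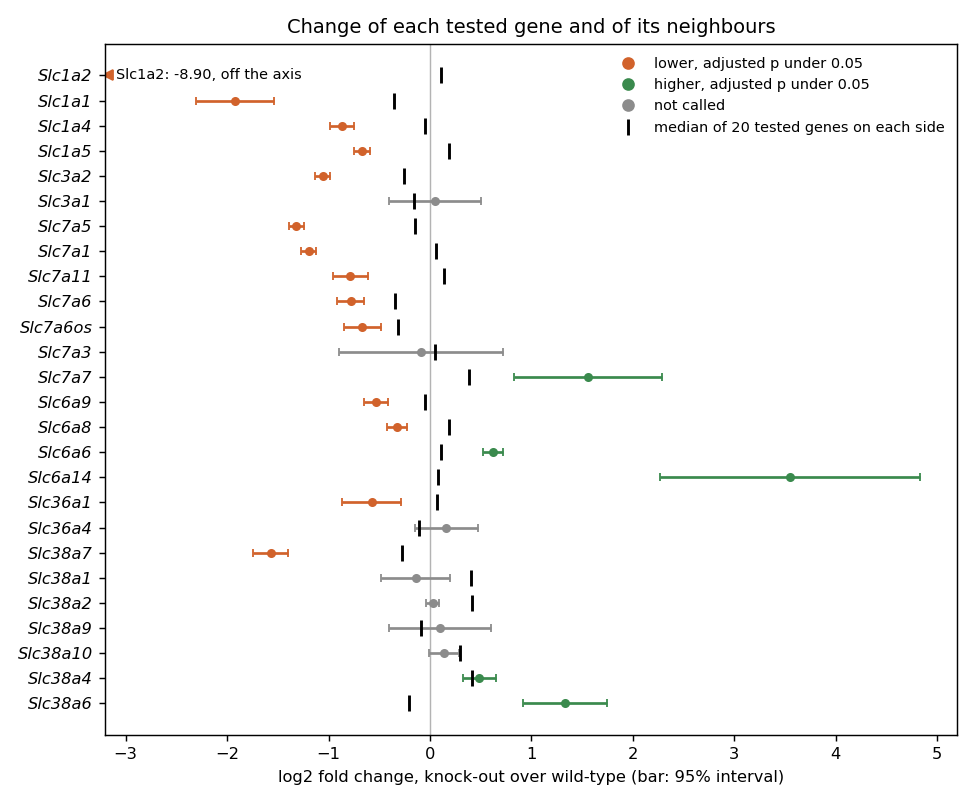
Log2 fold change (knock-out over wild-type) of each tested member with its 95% interval, coloured by call, and the median of the 20 tested genes on each side as a black tick. Slc1a2, at -8.90, lies off the axis, and Slc38a4 is the called member whose interval holds its neighbours' median.

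The Slc6 carriers, which use sodium and chloride, divided evenly. Slc6a6 and Slc6a14 rose, and Slc6a8 and Slc6a9 fell. Slc6a6, the taurine importer TauT, stood at 125, 118 and 125 CPM in wild-type and at 195, 188 and 182 CPM in knock-out libraries. It was higher in every knock-out library, with a log2 fold change of 0.62 ± 0.05 (edgeR adjusted p = 5.55e-17). Slc6a14, a broad importer of neutral and cationic amino acids known from colon epithelium, was at the edge of detection in wild-type libraries (0.0786, 0.306 and 0.108 CPM). In knock-out libraries it stood at 1.86, 2.85 and 1.15 CPM. That is 5 against 64 counts (log2 fold change 3.55 ± 0.64, edgeR adjusted p = 2.64e-06). It reached the count minimum in knock-out libraries only, so it entered the test through the group in which it is high. Without wild-type replicate 2, which held 3 of the 5 wild-type counts, the value was 4.27. It rose beside the epithelial keratins described above, and their part in its rise was not tested.

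The creatine importer Slc6a8 fell from 173 ± 8.79 to 138 ± 6.32 CPM (log2 -0.32 ± 0.05, edgeR adjusted p = 7.76e-08). The glycine importer Slc6a9 fell from 105 ± 6.39 to 72.2 ± 1.32 CPM (log2 -0.53 ± 0.06, edgeR adjusted p = 3.15e-11). Neither overlapped between genotypes, and neither reached 1.5-fold. Slc6a13, a carrier of GABA and taurine, had 0, 0 and 1 counts in wild-type and 7, 6 and 0 in knock-out libraries, which overlap (ratio of knock-out to wild-type 12.8, 95% counting interval 1.93 to 546; 7.71 without wild-type replicate 1). The serotonin carrier Slc6a4 had 5 and 5 counts.

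Of the proton-coupled carriers, Slc36a1 fell from 16.9 ± 0.588 to 11.3 ± 1.35 CPM (log2 fold change -0.57 ± 0.14, edgeR adjusted p = 0.000471). It encodes PAT1, which exports small amino acids from lysosomes. Slc36a4 was not called, with a 95% interval of the log2 fold change from -0.15 to 0.47.

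Among the 7 Slc38 carriers, the sodium-coupled importers of glutamine and other neutral amino acids, 2 rose, 1 fell and 4 were not called. Slc38a2 encodes SNAT2, known as a carrier that cells raise when amino acids are scarce. It stood at 898, 925 and 904 CPM in wild-type and at 904, 939 and 935 CPM in knock-out libraries. The genotypes overlapped, and the 95% interval of its log2 fold change, -0.04 to 0.09, leaves out falls of the size measured for Slc1a5 and Slc7a5. Scaling decides whether it is called. With library sizes alone the value was 0.15 (edgeR adjusted p = 2.81e-05), and with upper-quartile factors 0.18 (edgeR adjusted p = 7.51e-07). With the median of its chromosomal neighbours subtracted it was -0.39 (F test, adjusted p = 8.47e-16). This F test kept the gene's own SE and took the median as fixed, so its p leaves out the spread between neighbours.

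Slc38a1, a glutamine importer that lies beside Slc38a2, stood at 12.2, 11 and 9.06 CPM in wild-type and at 8.61, 11.2 and 9.61 CPM in knock-out libraries. The groups overlapped, with a 95% interval of the log2 fold change from -0.48 to 0.20. With the median of its chromosomal neighbours subtracted, Slc38a1 was called lower, at -0.54 (same F test, adjusted p = 0.00446). Slc38a4, the third of this cluster on chromosome 15, rose from 42.7 ± 3.37 to 59.7 ± 4.82 CPM (log2 fold change 0.49 ± 0.08, edgeR adjusted p = 3.84e-07). The genes around it rose by about as much: their median was 0.42, and relative to it Slc38a4 differed by 0.07 (same F test, adjusted p = 0.444). The genes on each side of Slc38a1 and Slc38a2 had medians of 0.40 and 0.42.

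Slc38a7, the lysosomal exporter of glutamine and asparagine, had the largest fall of its family. It stood at 63.3, 67.1 and 65.0 CPM in wild-type and at 20.2, 22.6 and 23.0 CPM in knock-out libraries. These groups were far apart, with a log2 fold change of -1.57 ± 0.09 (edgeR adjusted p = 3.06e-23). Slc38a6 moved the other way, from 3.38, 6.53 and 3.67 CPM to 11.6, 10.9 and 11.3 CPM. Wild-type replicate 2 was the highest of its group and still below every knock-out library (log2 fold change 1.33 ± 0.21, edgeR adjusted p = 1.38e-07). Slc38a9, the lysosomal arginine sensor that signals to mTORC1, was not called (95% interval of the log2 fold change -0.40 to 0.60). Slc38a10 was not called either, at 54.7 ± 4.91 and 59.9 ± 4.23 CPM (95% interval -0.01 to 0.29).

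Neither Slc43 member could be tested. Slc43a2, a carrier of large neutral amino acids, had 0, 1 and 0 counts in wild-type and 2, 4 and 10 in knock-out libraries (ratio of knock-out to wild-type 15.8, 95% counting interval 2.46 to 663). Without library sg3 this ratio was 8.76 (1.06 to 403), without wild-type replicate 1 it was 9.49, and without replicate 2 no wild-type count was left. Slc43a3, a nucleobase carrier, had 6 and 18 counts (2.96, 95% counting interval 1.13 to 9.12). When the filter on low counts was dropped, Slc1a7 was called lower and Slc6a13 and Slc43a2 higher by edgeR (adjusted p = 0.00285, 0.0394 and 0.0183), on the few counts just given.

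Ratios of counts within a library carry no scaling between libraries, and 7 pairs were compared, chosen after the values were seen. The log2 ratio of Slc7a5 to Slc3a2 was 0.60 ± 0.07 in wild-type and 0.35 ± 0.03 in knock-out libraries (SD, n = 3 each), a shift of -0.26 against the light chain. The ratios of Slc7a6 and Slc7a11 to Slc3a2 shifted the other way, each by 0.28, and that of Slc7a1 to Slc3a2 by -0.13. The ratio of Slc1a5 to Slc7a5 moved from -0.60 ± 0.02 to 0.04 ± 0.02, since Slc7a5 had the larger fall. Against Slc38a2, both lost ground: the ratio of Slc38a2 to Slc7a5 moved from 0.25 ± 0.06 to 1.59 ± 0.05, and that of Slc38a2 to Slc1a5 from 0.85 ± 0.05 to 1.54 ± 0.07. Groups did not overlap for any of the 7 pairs. The exact two-sided permutation p was 0.1 for each, which is the smallest that 3 against 3 libraries can give, and the Benjamini-Hochberg value over the 7 was 0.1. Since these ratios use raw counts, they compare changes and not the molar levels of the proteins or transcripts.

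**Figure D4:**
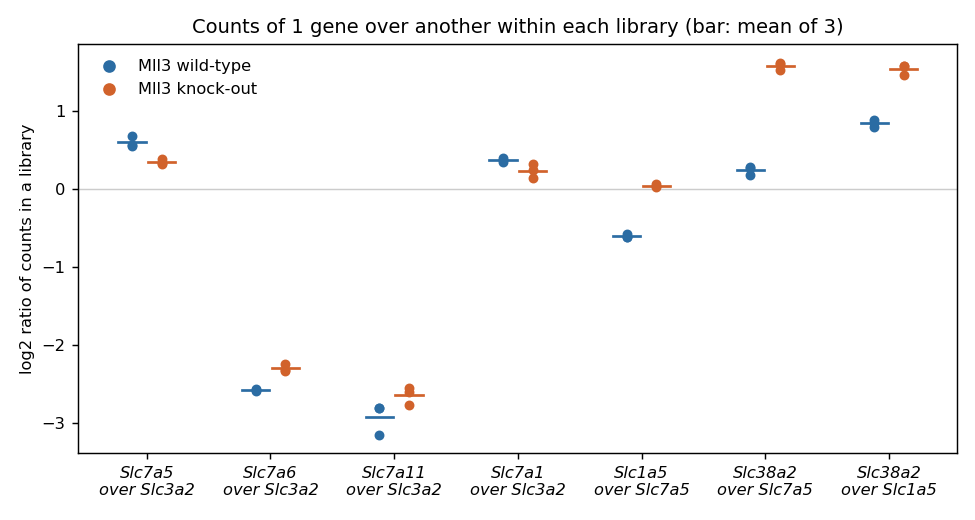
Log2 ratio of counts within each library for 7 pairs of carriers, wild-type and knock-out libraries as points with the mean of 3 as a bar. Slc38a2 gained on both Slc7a5 and Slc1a5, and the genotypes do not overlap for any pair.

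Position on the chromosome accompanied some of the falls. Slc7a5, Slc7a6, Slc7a6os and Slc38a7 lie on chromosome 8, where 653 tested genes had a median of -0.35, and Slc1a1 and Slc3a2 lie on chromosome 19, where the median of 411 genes was -0.16. Relative to the 20 tested genes on each side, Slc7a5 was lower by -1.17, Slc38a7 by -1.29, Slc3a2 by -0.80, Slc7a6 by -0.44 and Slc7a6os by -0.35. All were still called by the F test that takes the neighbours' median as fixed. For Slc7a6 and Slc7a6os the medians of the neighbours (-0.34 and -0.32) were nearly as large as what was left after removing them. The DNA copy number of these cells was not analysed here, and its part was not tested.

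The listed genes of the amino acid stress response were mostly lower beside the carriers. The list holds Atf4 itself and the Eif2ak kinases that act upstream of it, not only genes that Atf4 drives. This list and the other pathway lists were drawn up with earlier results of these data known. Of 31 listed genes 28 were tested, of which 20 fell, 4 rose and 4 were not called (33.2% of all tested genes fell and 33.1% rose), with a median log2 fold change of -0.68 against 0.02 for all genes. Atf4 mRNA fell from 990 ± 26.7 to 573 ± 9.05 CPM (log2 fold change -0.79, edgeR adjusted p = 3.16e-28). Ppp1r15a, which encodes a phosphatase subunit that restores translation after stress, fell from 869 ± 9.75 to 209 ± 8.0 CPM. Asparagine synthetase (Asns) fell from 972 ± 28.7 to 404 ± 3.38 CPM and the proline synthesis enzyme Aldh18a1 from 450 ± 2.97 to 175 ± 7.87 CPM. Gpt2, the mitochondrial alanine transaminase, fell from 235 ± 2.68 to 90.6 ± 2.84 CPM. The 4 that rose were Ddit4 (log2 fold change 0.55), Chac1 (0.46), Eif2ak3 (0.27) and Eif2ak4 (0.22). The fall of Ppp1r15a was 2.06 on the log2 scale in size, past that of every CD98 member.

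The genes through which amino acids act on mTORC1, the kinase complex that couples nutrients to growth, moved both ways. Of 34 tested, 16 fell, 9 rose and 9 were not called, beside 33.2% and 33.1% of all tested genes, and the median of -0.12 became 0.00 with library sizes alone and 0.04 with upper-quartile factors, where 10 fell and 13 rose. The cytosolic leucyl-tRNA synthetase gene Lars fell from 877 ± 30.7 to 427 ± 12.7 CPM. Fnip1, a partner of folliculin, fell from 139 ± 2.69 to 75 ± 3.42 CPM, and the Ragulator subunit Lamtor3 from 116 ± 3.62 to 61.3 ± 2.38 CPM. Rheb, the small GTPase that switches the complex on, fell from 230 ± 7.16 to 152 ± 7.25 CPM.

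Enzymes that use the imported amino acids were called in both directions, beside 33.1% higher and 33.2% lower of all tested genes. Of 21 tested genes of glutamate, cysteine and glutathione metabolism, 9 rose and 7 fell (median 0.05). Gpt2, Chac1 and Cth of this list are also counted in the stress response list, as is Sesn2 of the mTORC1 list. Got1, the cytosolic aspartate transaminase, fell from 378 ± 10.6 to 140 ± 8.68 CPM, while Gpx4, which uses glutathione to repair lipid peroxides, rose from 333 ± 14 to 491 ± 17.4 CPM. Of 15 tested genes of branched-chain, arginine, glycine and taurine metabolism, 7 rose and 4 fell (median 0.13). Csad, an enzyme of taurine synthesis, rose from 8.57 ± 0.775 to 33.1 ± 0.404 CPM, in the same libraries in which the taurine importer Slc6a6 rose. Gamt, which makes creatine, rose from 2.56 ± 0.717 to 22.8 ± 2.48 CPM, in the libraries in which the creatine importer Slc6a8 fell. Dld, a subunit shared by the branched-chain and other dehydrogenase complexes, fell from 460 ± 17.6 to 235 ± 9.27 CPM, and Bcat1, the cytosolic branched-chain transaminase, from 265 ± 9.33 to 181 ± 8.76 CPM.

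Of 17 tested regulators and partners of the carriers, 8 fell and 6 rose (median 0.05), beside 33.2% lower and 33.1% higher of all tested genes. With library sizes alone and with upper-quartile factors 8 fell and 8 rose, and the median was 0.17 and 0.21. Myc, a transcription factor known to raise Slc1a5 and Slc7a5, fell from 305 ± 6.70 to 168 ± 2.26 CPM (log2 fold change -0.86, edgeR adjusted p = 1.54e-25). Hif1a, the hypoxia factor, fell from 281 ± 13.7 to 158 ± 6.11 CPM, and Itgb1, the integrin that binds CD98, from 1076 ± 53.9 to 657 ± 14.1 CPM. Nfe2l2, known to raise Slc7a11, rose from 168 ± 6.49 to 193 ± 9.01 CPM (log2 fold change 0.19, edgeR adjusted p = 0.000246), while Slc7a11 fell. Any part of Nfe2l2 in the level of Slc7a11 was not tested. Nedd4, a ubiquitin ligase, rose from 505 ± 12.9 to 850 ± 15.1 CPM. Levels of mRNA say nothing of the activity of these proteins.

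Of 10 tested amino acid carriers outside the named families, 4 fell and 2 rose, beside 33.2% and 33.1% of all tested genes. These carriers are mostly of mitochondria and lysosomes. Their median was -0.09, and it was above 0 with library sizes alone (0.03) and with upper-quartile factors (0.06). With either of these scalings 3 fell and 2 rose. The lysosomal cysteine carrier Mfsd12 rose from 7.09 ± 0.657 to 27.4 ± 0.879 CPM, and the mitochondrial aspartate and glutamate carrier Slc25a13 from 70.7 ± 1.55 to 89.2 ± 5.53 CPM. The mitochondrial branched-chain amino acid carrier Slc25a44 fell from 47.6 ± 1.07 to 32.2 ± 1.65 CPM and the lysosomal histidine and peptide carrier Slc15a4 from 37.3 ± 4.38 to 24.9 ± 1.99 CPM.

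**Figure D5:**
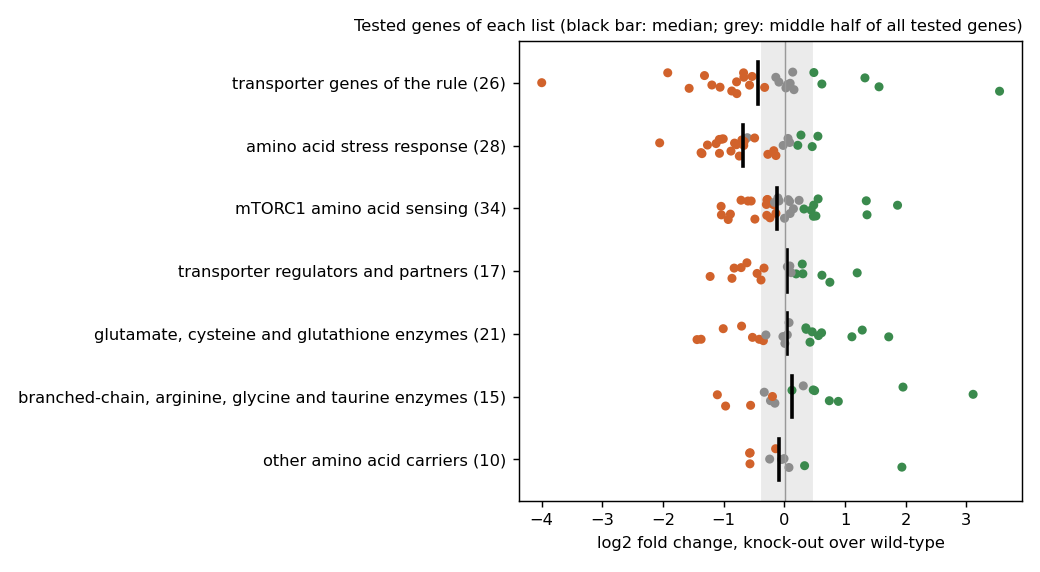
Log2 fold change of every tested gene of the transporter families and of the 6 pathway lists (points; orange lower, green higher, grey not called), with each list's median as a black bar and the interquartile range of all tested genes in grey; Slc1a2 is drawn at -4. The stress response list has the lowest median, -0.68, and the transporter families the next, -0.43. Genes shared by lists are drawn in each.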

How the data were processed

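The measurement was strand-specific RNA-seq of CT26 cells, 3 wild-type and 3 Mll3 knock-out libraries. The authors deposited 1 table of raw counts per Ensembl gene, and every row is above 0 in at least 3 libraries. The submitters' processing notes name fastp, STAR and HTSeq, among other tools, and the build mm10. Versions, the annotation and how strand was set in counting: not given in the sources used here. Single-cell and CUT&Tag samples were not analysed here.

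Symbols came from a RefSeq symbol table, which named 17650 of the 17718 identifiers, and gene positions and promoter windows from RefSeq GRCm38.p6. Genes were kept by filterByExpr (minimum count 10, minimum total 15), scaled by TMM and tested with edgeR 4.0.16 in R 4.3.3 by the quasi-likelihood F test (robust, Benjamini-Hochberg, threshold 0.05). The knock-out columns were used as a group, since their sg numbers match no replicate label. The SE of a log2 fold change was its size over the square root of F. None is given for Slc1a2, which had 6 knock-out counts. limma 3.58.1 (voom), DESeq2 1.42.0, other scalings, filters and thresholds, each library left out, and chromosome or local medians removed were the alternatives. For those medians the F test kept each gene's own SE and took the median as fixed. Its p-values leave out the spread between the genes behind the median. Libraries of a genotype differed by more than sampling noise (2.13 to 3.19 times its variance), so none is a copy of another.

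The members and lists were chosen with earlier results of these data known. Values are given in every library for members called with at least 1.5-fold, for the CD98 complex, Slc1a5, Slc38a1 and Slc38a2, and of each list the 4 called genes with the smallest p are named, plus Atf4, Myc and Nfe2l2. One gene that this rule names is not reported here. Csf1r, Lyz2, Ptprc, Syt1, Col1a1, Col1a2 and the keratins are marker genes, chosen for naming after their values were seen. The 4 stress response genes that rose, and Castor1, Castor2 and Sesn1, were also named after their values were seen.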

Additional observations from a re-analysis of the deposited data

How the results depend on the processing

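Of the 26 tested members, 14 kept their call and direction under every one of the 17 alternatives that tested them (6 leave out 1 library); the stricter filter tested 22 members, without Slc6a14 and Slc7a7 of these 14. Against a 1.5-fold change (glmTreat) 10 members were lower and 3 higher, and the calls over the table went from 8621 to 2602. Slc6a6, Slc6a8, Slc6a9, Slc7a6os, Slc36a1 and Slc38a4 were then not called. With local medians removed 16 members were lower. The members' median ran from -0.27 (upper-quartile factors) to -0.59 (stricter filter), always below 0.

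Of the 7 members that were not called, all but Slc36a4 changed sign, and the cause was not tested. Slc38a1 was 0.0182 with upper-quartile factors and called lower with local medians removed (-0.54), Slc38a10 -0.16 with local medians removed, and Slc38a2 -0.11 with chromosome and -0.39 with local medians removed. Slc7a3 was 0.0333 with library sizes alone and 0.0689 with upper-quartile factors. Leaving out 1 library gave -0.0149 to 0.238 for Slc38a9, -0.18 to 0.21 for Slc3a1 and -0.39 to 0.13 for Slc7a3. Slc38a10 was called higher with library sizes alone (0.26), upper-quartile factors (0.30), a stricter filter (0.17) and without wild-type replicate 2 (0.20). TMM scaling left the median of all genes at 0.02, while upper-quartile factors moved it to 0.17 and library sizes alone to 0.14. The share of calls that were higher went from 49.9% to 63.7% and 60.5%.

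No paired analysis was possible because the knock-out columns carry sg numbers that no label ties to a replicate. Low depth limits the 7 untested members, where intervals cover counting error only.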
